A study of Mus musculus with 6 samples.

Results

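The circadian clock and PAR bZIP genes described here are 10 genes of the 48353 in the deposited annotation, chosen by name: Arntl, Clock, Per1, Per2, Per3, Cry1, Cry2, Dbp, Tef and Nfil3. They were followed in hepatocytes, the parenchymal cells of the liver, taken from male C57BL/6 mice. In the 3 knock-out samples Bim (symbol Bcl2l11), which encodes a pro-apoptotic BH3-only protein, was deleted with Bim(lox/lox) alleles and Alb-Cre, a Cre recombinase driven by the albumin promoter and so largely limited to hepatocytes. The 3 other samples are labelled wild-type, and whether they carried floxed alleles or Cre is not stated. The protocol names regular chow and a high-fat diet begun at 8 to 10 weeks of age and kept for 14 to 20 weeks, without saying which diet, age or hour of collection applied to which sample. Cells were freed from the liver by collagenase perfusion, and polyadenylated RNA was read as 1 single-end library per sample. Separate animals are not stated as the source of the samples, and p-values here measure only the spread between libraries, which may be technical.

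The mammalian clock is a transcriptional loop. CLOCK and ARNTL (also called BMAL1) bind E-box elements together and switch on the Per and Cry genes, whose proteins return to the nucleus and shut that activity off. A second loop runs through the nuclear receptors NR1D1 and NR1D2, which repress Arntl, and the ROR receptors, which activate it. DBP, TEF and HLF, the PAR bZIP activators, bind D-box elements and carry the rhythm to liver enzymes, while NFIL3 is a bZIP repressor of the same elements. In mouse liver Arntl, Clock, Nfil3 and Cry1 transcripts are known to peak from late night to early day, and Dbp, Tef, Nr1d1 and the Per genes from midday to dusk, Dbp falling to a deep trough in between.

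Only Cry1 and Nfil3 lie at loci with 1 annotated transcript, where reads need not be divided. Per2 has 2 transcripts, Cry2 4, Dbp 5, Arntl and Per1 6 each and Tef 10, while the locus of Clock holds 8 and that of Per3 20, which it shares with Camta1 and Vamp3. This matters because an exact 0 was common where reads had to be divided. Taking loci read in at least 3 libraries and holding over 100 reads there (median), 18.7% of the library values were exactly 0 where a locus had 2 to 4 transcripts and 18.0% where it had 5 to 8, against 0.0156% where it had 1. A 0 at a locus with several transcripts may be an estimate that was not made. Genes with zeros are therefore given library by library, with no group mean and no fold. A limma difference given for such a gene takes its zeros as values unless stated otherwise. By this count 4 of the 10 genes (Clock, Cry1, Tef and Nfil3) were above 0 in all 6 libraries, 3 (Arntl, Cry2 and Dbp) in some, and 3 (Per1, Per2 and Per3) in none.

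Promoter windows that held a match are printed for 4 of these genes. In Arntl and Tef the reads went to different transcript starts between libraries, and Cry1 and Nfil3 were read without division. RefSeq windows of GRCm38.p6, from 250 bases before to 50 after a start, were matched for 9 of the 10 genes (14 windows), all but Per2. They were searched on both strands for the E-box CACGTG, the D-box TTANGTAA and AGGTCA, the core of the element bound by NR1D and ROR receptors. Capitals mark the match, and no match overlapped that of another motif. The sequences run 5′ to 3′ on the strand of the gene.
Arntl, second of 2 starts, chr7:113207261-113207560, plus strand: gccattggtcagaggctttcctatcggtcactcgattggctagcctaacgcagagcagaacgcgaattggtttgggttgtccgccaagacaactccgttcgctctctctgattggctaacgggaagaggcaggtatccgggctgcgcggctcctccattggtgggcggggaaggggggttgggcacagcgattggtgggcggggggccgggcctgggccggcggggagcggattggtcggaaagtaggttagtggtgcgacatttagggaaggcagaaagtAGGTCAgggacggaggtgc
Tef, upstream start, chr15:81802423-81802722, plus strand: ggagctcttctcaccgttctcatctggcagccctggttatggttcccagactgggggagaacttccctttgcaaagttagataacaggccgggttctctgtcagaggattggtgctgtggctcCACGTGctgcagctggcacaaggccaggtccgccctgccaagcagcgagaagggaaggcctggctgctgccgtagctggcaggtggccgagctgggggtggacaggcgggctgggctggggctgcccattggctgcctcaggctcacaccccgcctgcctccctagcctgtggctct
Tef, downstream start, chr15:81811164-81811463, plus strand: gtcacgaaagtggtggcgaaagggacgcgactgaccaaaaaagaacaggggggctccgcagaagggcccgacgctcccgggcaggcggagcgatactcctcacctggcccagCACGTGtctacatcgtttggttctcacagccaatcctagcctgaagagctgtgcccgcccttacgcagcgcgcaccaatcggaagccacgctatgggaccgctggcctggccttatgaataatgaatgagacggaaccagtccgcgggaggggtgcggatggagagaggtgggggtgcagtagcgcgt
Cry1, chr10:85185005-85185304, minus strand: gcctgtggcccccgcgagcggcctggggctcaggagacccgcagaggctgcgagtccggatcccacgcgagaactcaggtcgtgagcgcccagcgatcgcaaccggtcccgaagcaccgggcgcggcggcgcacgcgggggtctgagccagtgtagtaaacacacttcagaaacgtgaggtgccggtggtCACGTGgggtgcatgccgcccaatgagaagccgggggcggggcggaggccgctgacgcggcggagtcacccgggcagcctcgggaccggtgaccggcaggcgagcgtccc
Nfil3, chr13:52980990-52981289, minus strand: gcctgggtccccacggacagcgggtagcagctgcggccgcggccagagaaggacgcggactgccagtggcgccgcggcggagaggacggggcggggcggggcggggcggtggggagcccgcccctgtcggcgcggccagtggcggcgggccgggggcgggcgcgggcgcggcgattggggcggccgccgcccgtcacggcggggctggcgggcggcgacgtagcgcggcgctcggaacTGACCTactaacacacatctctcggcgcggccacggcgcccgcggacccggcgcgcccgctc

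CACGTG was found in windows of Cry1, Tef and Per1, which is 4 of the 14 windows, and in 7.15% of all 32851 windows. In Tef both starts carry it, its first base at -127 of the upstream and -138 of the downstream start, and in Cry1 it begins at -60. AGGTCA was found in 4 windows, of Arntl (at 32, after the start), Nfil3 (at -12, on the opposite strand), Clock and Per1, and in 16.3% of all windows. TTANGTAA was found in the window of Per3 only, at 2 positions, and in 2.32% of all windows. The windows of Dbp and Cry2 held none of the 3, nor did the Arntl window that is not printed, whose start is at 113207465. These matches are descriptions of the letters and say nothing of binding in these cells.

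The libraries held 25335211 to 31130519 estimated reads, and 10486 to 11255 genes per library were above 0. The deleted gene, Bcl2l11, had 0 reads in each knock-out library, against 0, 680 and 478 reads in wild-type replicates 1, 2 and 3, at a locus of 8 transcripts. Of 10 hepatocyte markers, 8 were above 0 in every library, with Tat at 0 in all 6 and Hnf4a at 0 in knock-out replicate 3. Wild-type replicate 1 stood apart: the mean of 5 macrophage markers above 0 throughout was 8.03 there on the log2(RPKM + 1) scale, against 3.25 to 4.52 in the other 5. The summed level of all 10 such markers was 63.0 to 132.5 RPKM in knock-out libraries, against 3988, 109.2 and 121.8 RPKM in wild-type replicates 1, 2 and 3. The mean of the 8 hepatocyte markers was lowest in wild-type replicate 1, at 8.57 against 8.96 to 9.33. In RPKM Apoa1, Apob, Ttr, Cps1 and Ass1 were lowest there. Alb was lowest in wild-type replicate 3 and Serpina1a in knock-out replicate 3, while Cyp2e1 was highest in wild-type replicate 1. Knock-out replicate 1 and wild-type replicate 2 were high in 5 interferon response genes (means of 8.05 and 7.85, against 3.83 to 5.37). All 6 stellate cell markers were at 0 in every library. Of the 6 endothelial markers, Stab2 and Cdh5 were read in wild-type replicate 1 only, and the remaining 4 were at 0 in every library.

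Arntl, the partner of CLOCK and the gene without which the mouse clock stops, was the 1 member past the test between the groups. It was listed at 0 in knock-out replicates 1, 2 and 3 and at 626, 972 and 664 estimated reads in wild-type replicates 1, 2 and 3, which is 9.88, 15.3 and 11.1 RPKM (reads scaled to transcript length and library size). All 3 knock-out libraries were at 0 and all 3 wild-type libraries were read, so the groups did not overlap, a separation seen in 2.78% of tested genes with lower and in 2.69% with higher knock-out levels. In RNA from a cell preparation, fewer cells of a type and less RNA per cell cannot be told apart. The gene (ENSMUSG00000055116) lies on chromosome 7 of GRCm38 from 113207465 to 113314126 on the plus strand. In wild-type replicates 2 and 3 every Arntl read went to the coding transcript Arntl-201, which starts at 113207465. In wild-type replicate 1 none did: 587 reads went to Arntl-204, a coding transcript that starts at 113207557, and 39 to Arntl-202, a retained-intron transcript. The AGGTCA match printed above lies between these starts, in a window whose own start is at 113207511.

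Knock-out minus wild-type for Arntl was -3.69 on the log2(RPKM + 1) scale (SE 0.25), with a limma Benjamini-Hochberg adjusted p of 0.00427 over 11021 genes. With a pseudocount of 0.1 the difference was -6.90, so its size is no measure of a fold. The background to this call is that 87 of the 11021 tested genes (0.789%) passed, 46 of them lower in knock-out (0.417%), and that each of the 87 had 0 in 1 whole group and reads in every library of the opposite group, at a locus with 2 or more transcripts. Of all tested genes, 1051 were at 0 in exactly 3 libraries, and 56 (0.508%) had the Arntl pattern of 0 in all knock-out and reads in all wild-type libraries. Arntl passed the filter on low values through the wild-type libraries alone. Among the 5538 tested genes above 0 in every library, which Arntl is not, limma called 0 (0.0%), with 130 at an unadjusted p below 0.05. Whether the zeros of Arntl are missing estimates or missing transcripts was not tested.

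**Figure D1:**
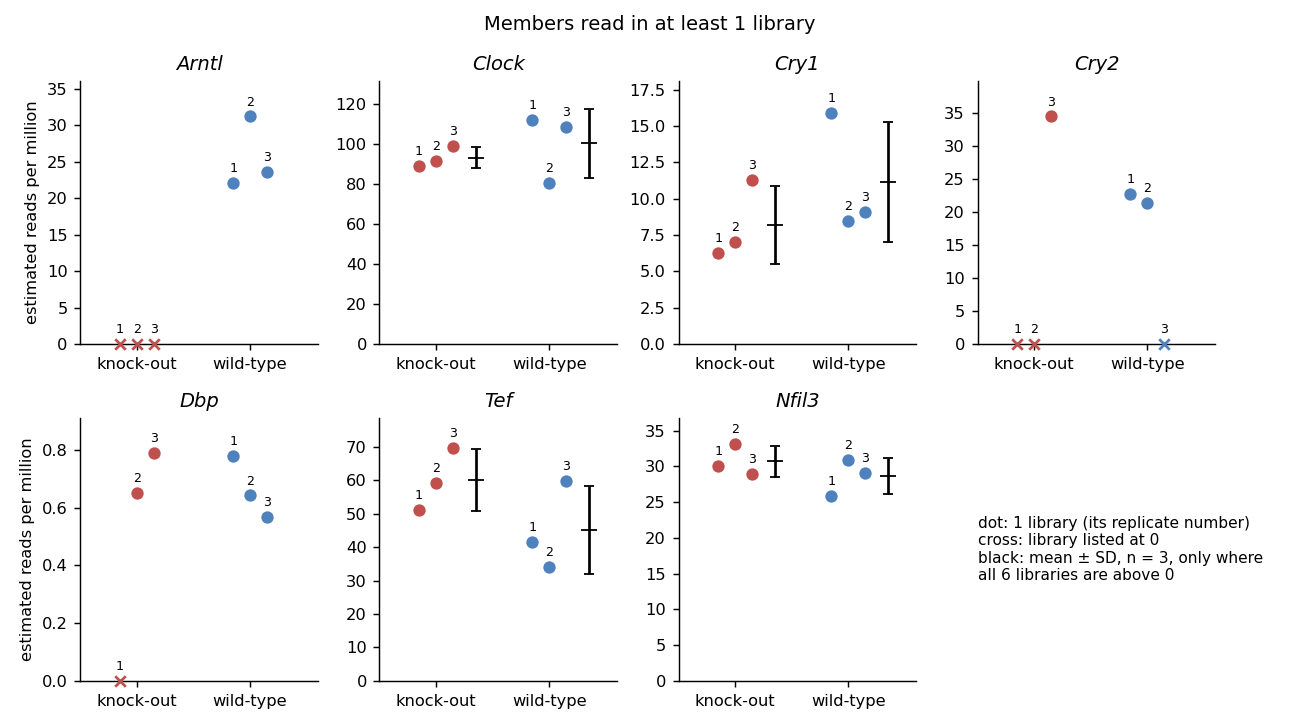
Estimated reads scaled to a library total of 1000000 (RPM, vertical axis, from 0) of the 7 members read in at least 1 library, 1 panel each, with knock-out left and wild-type right; dots are libraries with their replicate number, crosses are libraries listed at 0, and black bars are means ± SD (n = 3), drawn only for the 4 genes above 0 in all 6 libraries. Arntl is at 0 in all 3 knock-out libraries, and in the other 6 genes the groups overlap.

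Clock, the partner of Arntl, was read in every library. It had 2512, 2527 and 2507 estimated reads in knock-out replicates 1, 2 and 3, and 3166, 2507 and 3051 in wild-type replicates 1, 2 and 3. The groups overlapped, with wild-type replicate 2 at the level of the knock-out libraries. In RPM (estimated reads scaled to a library total of 1000000) Clock averaged 93.1 ± 5.23 in knock-out libraries and 100.3 ± 17.3 in wild-type libraries (n = 3 each, SD). The difference on the log2(RPM + 1) scale was -0.09 (SE 0.16), with a 95% interval from -0.50 to 0.31, that is from 0.706 to 1.24-fold. The limma adjusted p for Clock was 0.989 on that scale and 1 on the log2(RPKM + 1) scale.

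The RPKM of Clock spread more than its reads, and the reads were given to transcripts of different length. Knock-out replicates 1 and 2 and wild-type replicates 1 and 3 had all Clock reads on Clock-205 (9744 bases), while knock-out replicate 3 had 2156 of its reads and wild-type replicate 2 all of its 2507 on Clock-204 (5508 bases). Those 2 libraries had the highest RPKM of Clock, at 22.2 and 20.8, against 12.7 to 15.5 in the other 4. The highest library exceeded the lowest 1.74-fold in RPKM and 1.39-fold in RPM. Levels below are therefore compared between libraries mainly in RPM, with RPKM named where it is used, and between genes in RPKM.

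The 3 Period genes encode partners of the cryptochromes, with Per1 and Per2 needed for the rhythm and known to respond to light or hormones. Per1 (chromosome 11, 69095217 to 69109960, plus strand), Per2 (chromosome 1, 91415982 to 91459324, minus strand) and Per3 (chromosome 4, 151003652 to 151044665, minus strand) were listed at 0 reads on every transcript in all 6 libraries. None had a level to compare, and none was tested. The locus of Per3 did hold reads, on its other genes: Vamp3 had 522 to 949 reads and Camta1 204 to 444 in knock-out libraries, against 656 to 1156 and 307 to 747 in wild-type libraries. A 0 in all 6 libraries was not rare: 46.0% of 15181 protein-coding genes at loci with 2 or more transcripts were so listed, and 53.3% of 6514 at loci with 1 transcript. These shares take in genes of any level. Zeros in only some libraries were seen in 5817 of the 15181 genes and in 679 of the 6514. Of 80 cytosolic ribosomal protein genes, which every cell uses, 4 were also at 0 in all 6. Whether the Per transcripts were absent or their reads were not assigned was not tested.

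Cry1, the stronger of the cryptochrome repressors of CLOCK and ARNTL, lies at a locus of 1 transcript. It had 178, 194 and 286 reads in knock-out replicates 1, 2 and 3, and 450, 264 and 256 in wild-type replicates 1, 2 and 3. Knock-out replicate 3 lay above 2 of the wild-type libraries, so the groups overlapped, and wild-type replicate 1 was the highest of all. In RPM Cry1 averaged 8.20 ± 2.70 in knock-out libraries and 11.2 ± 4.13 in wild-type libraries (n = 3 each, SD). On the log2(RPM + 1) scale the difference was -0.39 (SE 0.37, 95% interval -1.35 to 0.56, limma adjusted p = 0.954), and on the log2(RPKM + 1) scale -0.36 (adjusted p = 0.941). The library with the most Cry1 was also the one with high macrophage markers and with the most Clock and least Nfil3 RPM, and without it the difference in RPM was -0.13. The part of those cells in the Cry1 level was not tested.

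Cry2, the other cryptochrome, had 0, 0 and 874 reads in knock-out replicates 1, 2 and 3, and 644, 666 and 0 in wild-type replicates 1, 2 and 3, each read on the coding transcript Cry2-201 (3976 bases). Both groups held zeros and reads. Where Cry2 was read it lay at 11.4 RPKM in the knock-out library and 7.73 and 7.65 RPKM in the wild-type libraries. The limma difference for Cry2 was -0.87 with a 95% interval from -4.61 to 2.87 (adjusted p = 0.962).

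Dbp, the PAR bZIP activator with the deep daily rhythm, was close to the floor of the data in every library. It had 0, 18 and 20 reads in knock-out replicates 1, 2 and 3, and 22, 20 and 16 in wild-type replicates 1, 2 and 3, all on the coding transcript Dbp-204 (1156 bases). The 5 libraries with reads were alike, at 0.674 to 0.908 RPKM, and knock-out replicate 1 was at 0. Totals were even in every library for Dbp, as if each read counted as 2, so intervals were taken on the reads divided by 2. The exact 95% Poisson intervals of those 5 libraries then lay between 6.91 and 39.4 reads and overlapped one another; they cover counting error only. With a mean of 0.676 RPKM Dbp was under the filter of 1 and was not tested; with no filter the limma difference was -0.25 (adjusted p = 0.894).

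Tef, the PAR bZIP factor with the shallower rhythm, was well read. It had 1444, 1638 and 1764 reads in knock-out replicates 1, 2 and 3, and 1172, 1060 and 1680 in wild-type replicates 1, 2 and 3. The 2 lowest libraries were wild-type, and wild-type replicate 3 lay among the knock-out libraries. In RPM Tef averaged 60.0 ± 9.28 in knock-out libraries and 45.1 ± 13.2 in wild-type libraries (n = 3 each, SD), a difference of 0.43 on the log2(RPM + 1) scale (SE 0.26, 95% interval -0.23 to 1.09, limma adjusted p = 0.954). In RPKM the difference was 0.13 (adjusted p = 1), and the order of the libraries changed. Wild-type replicate 1, second lowest in reads, was the highest in RPKM, at 25.2 against 11.9 to 22.5 in the others. All of its Tef reads went to Tef-203, a retained-intron transcript of 2219 bases that begins at 81802737 near the upstream start printed above. In the other 5 libraries all went to Tef-201, a coding transcript of 4079 bases that begins at the downstream start, 81811414.

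**Figure D2:**
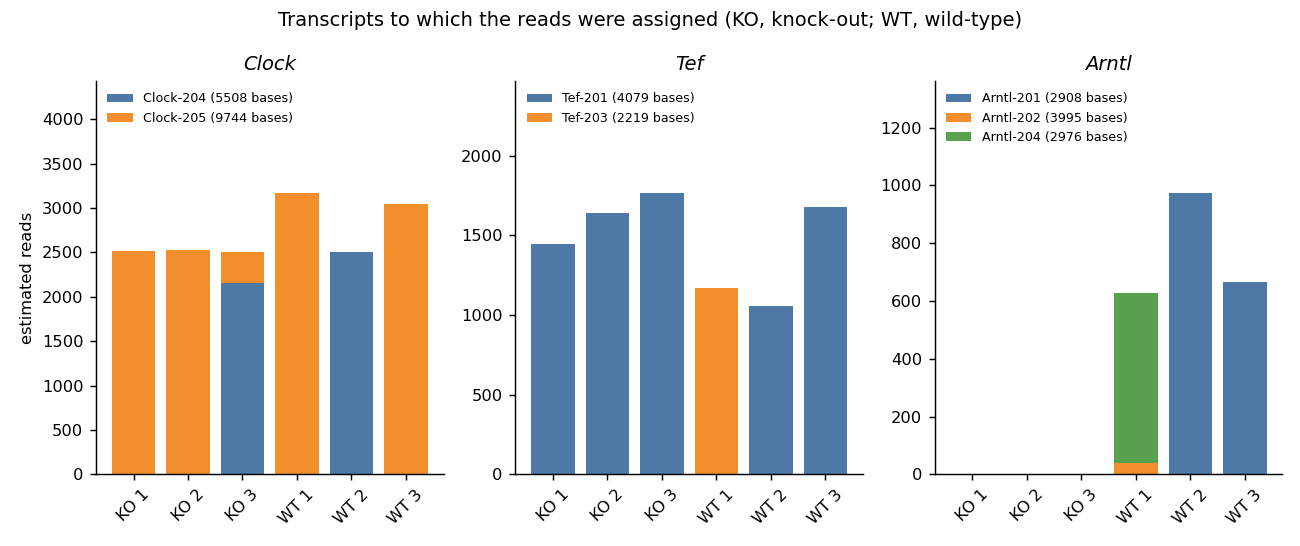
Estimated reads (vertical axis, from 0) of Clock, Tef and Arntl in the 3 knock-out (KO) and 3 wild-type (WT) libraries, with each bar divided by the transcript that the reads were assigned to. Clock changes from Clock-205 to Clock-204 in KO 3 and WT 2, and Tef from Tef-201 to Tef-203 in WT 1.

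Nfil3, the bZIP repressor of D-box elements, lies at a locus of 1 transcript and was the steadiest member. It had 848, 916 and 734 reads in knock-out replicates 1, 2 and 3, and 732, 964 and 820 in wild-type replicates 1, 2 and 3. The groups overlapped across nearly their whole range, and the highest library exceeded the lowest 1.28-fold in RPM. In RPM Nfil3 averaged 30.7 ± 2.15 in knock-out libraries and 28.7 ± 2.57 in wild-type libraries (n = 3 each, SD). The difference of 0.10 on the log2(RPM + 1) scale had a 95% interval from -0.27 to 0.46, that is from 0.830 to 1.38-fold (limma adjusted p = 0.959). On this scale a 2-fold change of Nfil3, or of Clock, in either direction thus lay outside the interval. For Cry1 a 2-fold fall lay inside it (0.393 to 1.48-fold), and for Tef a 2-fold rise (0.854 to 2.13-fold). On the log2(RPKM + 1) scale the Tef interval was 0.628 to 1.90-fold.

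Set against each other in RPKM over all 6 libraries, Nfil3 (20.2 ± 2.01), Tef (19.6 ± 4.57) and Clock (16.6 ± 3.98) were highest (SD, n = 6 each) and did not differ beyond their spread. Arntl followed in wild-type libraries only, at 9.88 to 15.3, overlapping the range of Clock and Tef, and Cry2 in the 3 libraries with reads, at 7.65 to 11.4. Cry1 (4.39 ± 1.51) lay below these, with its highest library at 7.13. Dbp lay under all of them at no more than 0.908, and the Per genes were at 0. Of the 6 members tested, 1 passed the test as lower in knock-out, against 0.417% of all tested genes, and 0 passed as higher, against 0.372%. The 1 was Arntl, whose call rests on its zeros in the knock-out libraries, so it is no result about the members as a set. The differences of all 6 were negative in 4 (Arntl, Clock, Cry1 and Cry2) and positive in 2 (Tef and Nfil3). Those of Arntl and Cry2 take zeros as values. With zeros as missing Cry2 was 0.52 and Arntl could not be fitted, so these signs are no count of lower levels. Of the 4 above 0 in all libraries, 2 differences on the log2(RPKM + 1) scale were positive and 2 negative, with a median of -0.02, against 0.0013 over the 5538 genes, and 0 had groups that did not overlap, against 5.94% of those genes.

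The other genes of the clock, a list of 18, held 13 tested genes, of which 0 passed in either direction. On this list 3 genes were above 0 in all libraries (Nr1d1, Bhlhe40 and Timeless), 11 in some and 4 in none (Npas2, Bhlhe41, Rorb and Hlf). Nr1d1, the nuclear receptor REV-ERB alpha that represses Arntl, had 854, 616 and 478 reads in knock-out libraries, against 596, 430 and 394 reads in wild-type libraries, with wild-type replicate 1 inside the knock-out range. The difference of Nr1d1 was 0.52 on the log2(RPM + 1) scale (SE 0.28, 95% interval -0.21 to 1.24, limma adjusted p = 0.954). Without wild-type replicate 1 it was 0.71. Its relative Nr1d2 had 0, 2720 and 0 reads in knock-out libraries, against 0, 0 and 2984 reads in wild-type libraries.

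Bhlhe40, the basic helix-loop-helix repressor DEC1, had 16832 to 23240 reads in knock-out libraries, against 18250 to 20430 reads in wild-type libraries. Its difference was 0.12 on the log2(RPM + 1) scale (95% interval -0.24 to 0.47) but 0.73 on the log2(RPKM + 1) scale (95% interval -0.73 to 2.19). The wide RPKM interval goes with knock-out replicate 3, where 8974 reads went to Bhlhe40-202, a transcript of 476 bases, and the RPKM was 1137 against 276.2 to 369.0 elsewhere. Timeless, a DNA replication factor named for its fly relative, differed by -0.30 on the log2(RPM + 1) scale (limma adjusted p = 0.954). Rora, a receptor that activates Arntl, had 2026, 1930 and 0 reads in knock-out libraries, against 0, 1838 and 1822 reads in wild-type libraries. It had zeros in both groups. The casein kinase gene Csnk1d had 0, 4862 and 4758 reads in knock-out libraries, against 4878, 4762 and 4760 in wild-type libraries. In RPKM the libraries with Csnk1d reads were further apart, at 84.5 and 86.8 in knock-out libraries, against 63.4, 332 and 354 in wild-type libraries. Arntl2, a relative of Arntl, had 638, 574 and 0 reads in knock-out libraries, against 0, 712 and 656 in wild-type libraries. Csnk1e, Gsk3b, Btrc, Fbxw11, Fbxl21, Cipc and Ciart also had zeros, and in none of the 11 genes with zeros in some libraries did 1 group hold only zeros and the opposite group only reads.

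**Figure D3:**
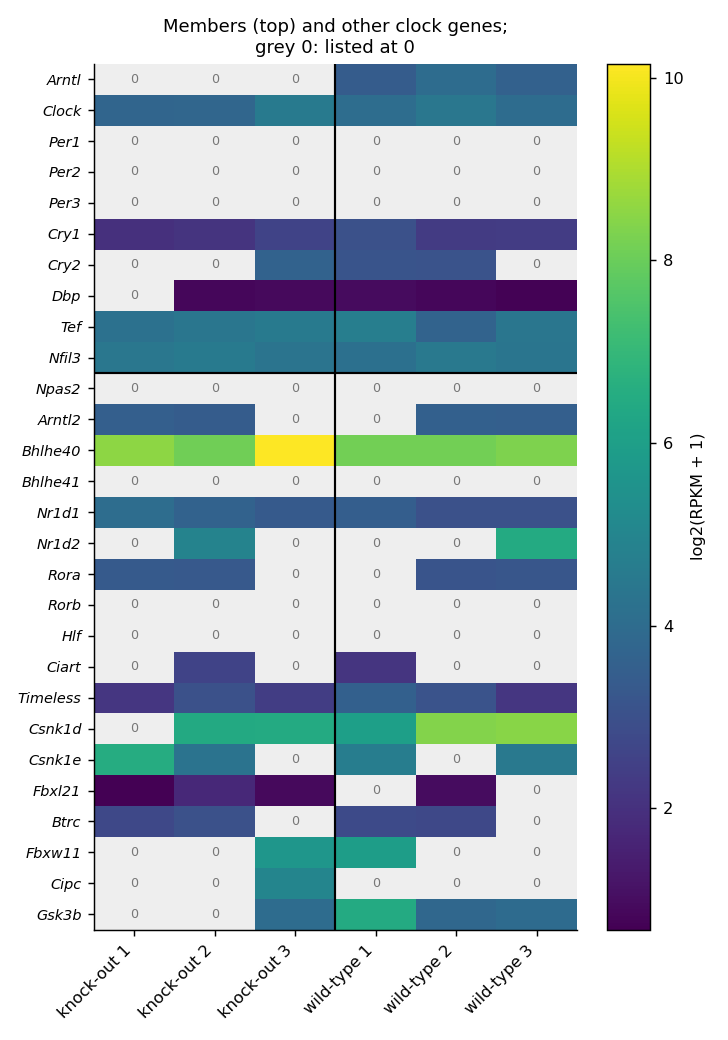
Level of the 10 members (top) and 18 other clock genes (rows) in 3 knock-out (left) and 3 wild-type (right) libraries, as log2(RPKM + 1) in colour; grey cells with 0 are library values listed at 0. Arntl is grey in the whole knock-out group and coloured in the whole wild-type group, which no other of the 28 rows is.

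**Figure D4:**
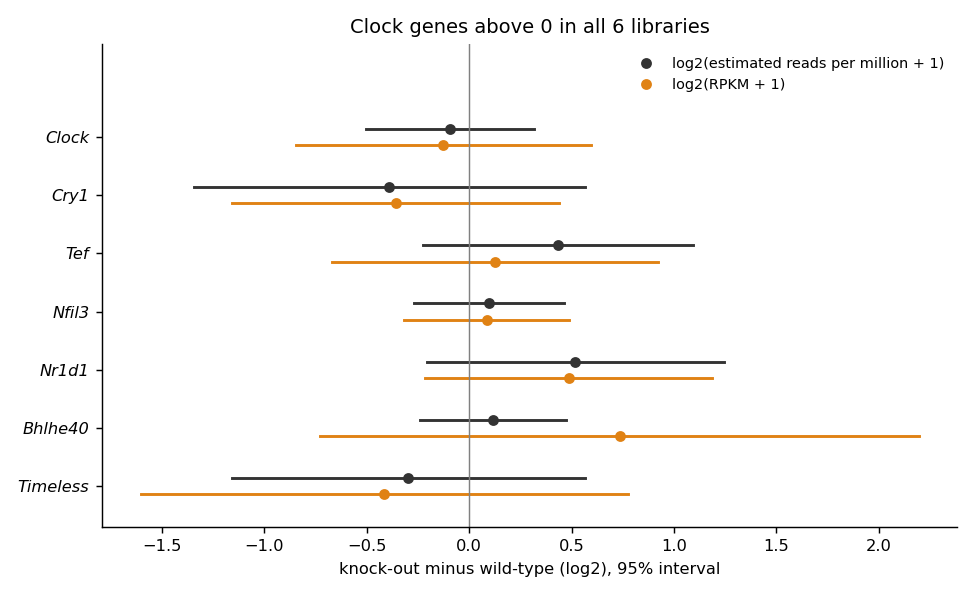
Knock-out minus wild-type difference (horizontal axis, log2) with its 95% interval for the 7 clock genes shown that were above 0 in all 6 libraries, in RPM (black) and in RPKM (orange). All 14 intervals include 0, and those of Bhlhe40, Clock, Timeless, Tef and Nfil3 are wider in RPKM than in RPM.

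The labels give no hour of collection, and no sample of known time was among these 6 to read one from. What could be read is whether dawn and dusk genes kept 1 ratio across libraries. Of 5 genes known to peak around dawn 3 were above 0 throughout (Clock, Nfil3 and Cry1), and of 10 that peak around dusk 2 were (Tef and Nr1d1). The mean log2(RPM + 1) of the dawn genes minus that of the dusk genes was -0.56, -0.35 and -0.17 in knock-out replicates 1, 2 and 3, and 0.28, 0.35 and 0.09 in wild-type replicates 1, 2 and 3. On this scale all knock-out libraries lay below all wild-type libraries, while in each of the genes alone the groups overlapped. For single tested genes above 0 in all libraries, the groups were apart in 5.94%, counted in RPKM and in either direction. RPM are not scaled to transcript length, so whether a dawn minus dusk value in RPM lies above or below 0 has no meaning. In log2(RPKM + 1) the dawn minus dusk level was -0.73, -0.53 and -0.14 in knock-out libraries, against -0.36, 0.40 and -0.12 in wild-type libraries. There the groups overlapped.

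On the scale of reads the dawn minus dusk level averaged -0.36 ± 0.20 in knock-out libraries and 0.24 ± 0.13 in wild-type libraries, a gap of -0.60, and on the RPKM scale -0.47 ± 0.30 in knock-out libraries and -0.03 ± 0.39 in wild-type libraries, a gap of -0.44 (SD, n = 3 each). No test was made of this score. It rests on 5 genes, none of which passed the test, and it moved most between scales in wild-type replicate 1 (0.28 and -0.36), where Tef reads were on Tef-203. Dbp and Arntl stood outside it because of their zeros. Side by side, Dbp was about as low in one group as in the other where it was read, while Arntl was read in wild-type alone. Whether all 6 samples were collected at 1 time was not tested and cannot be read from 5 genes without a reference series.

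**Figure D5:**
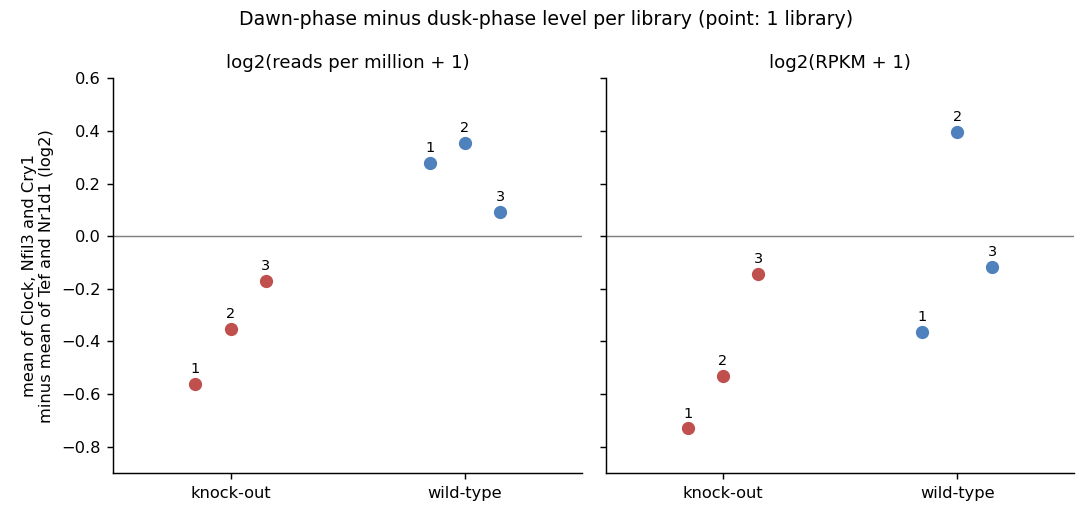
Mean level of Clock, Nfil3 and Cry1 minus that of Tef and Nr1d1 (vertical axis, log2) in each library, knock-out left and wild-type right, in RPM (left panel) and RPKM (right panel); numbers are replicates. The groups are apart in the left panel and overlap in the right, where wild-type replicate 1 lies at -0.36.

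Of 20 liver genes known to follow the clock or the PAR bZIP factors, 12 were tested and 0 passed in either direction; 8 were above 0 in every library, with 4 positive and 4 negative differences and a median of -0.02 on the log2(RPKM + 1) scale. Noct, the rhythmic phosphatase nocturnin, had the smallest unadjusted p: it averaged 40.6 ± 3.99 RPKM in knock-out libraries and 71.0 ± 26.9 RPKM in wild-type libraries (n = 3 each, SD, limma adjusted p = 0.941). In RPM it averaged 290.0 ± 19.9 in knock-out libraries and 300.3 ± 12.5 in wild-type libraries, a difference of -0.05 on the log2(RPM + 1) scale. Cyp2a4, a steroid hydroxylase that DBP is known to activate, at a locus of 1 transcript but with near-identical relatives that may share its reads, had 1606, 1232 and 952 reads in knock-out libraries, against 232, 2230 and 688 reads in wild-type libraries. The wild-type libraries of Cyp2a4 lay on both sides of the knock-out ones. The lowest was wild-type replicate 1, where the mean of the hepatocyte markers, though not each of them, was lowest. The difference was 0.86 on the log2(RPM + 1) scale with a 95% interval from -1.21 to 2.92, and 0.12 without that library. Nampt, the rate-limiting enzyme of NAD salvage, averaged 150.9 ± 62.5 RPM in knock-out libraries and 237.8 ± 122.5 RPM in wild-type libraries (n = 3 each, SD). Wild-type replicate 1, high in macrophage markers, had the most Nampt, at 368 RPM, and the difference on the log2(RPM + 1) scale was -0.61 with it and -0.23 without it. Nr1i3, the xenobiotic receptor CAR, averaged 14.7 ± 0.58 RPM in knock-out libraries and 14.0 ± 2.23 RPM in wild-type libraries. Cirbp, a cold-inducible RNA-binding protein, averaged 11.4 ± 1.54 RPM in knock-out libraries and 9.01 ± 2.12 RPM in wild-type libraries. None of these differences passed, and the groups overlapped in each. Rgs16, a regulator of G protein signalling, averaged 1.84 ± 0.84 RPM in knock-out libraries and 1.98 ± 0.96 RPM in wild-type libraries. In all 6 libraries 6 of the 20 were at 0, among them Alas1, the rate-limiting enzyme of heme synthesis, named after its values were seen.

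The genes whose RPKM pattern over the 6 libraries was most like that of the clock genes were sought for Tef and Clock, which stand in for Dbp and Arntl because those have zeros. Among 5537 other genes the 5 most like Tef were E4f1, Gm17300, Gm26718, B230219D22Rik and Rnf2 (Pearson r 0.982 to 0.988), and 169 genes had an r above 0.9. The 5 most like Clock were AI480526, Nkiras2, Gm11843, Brd7 and Gm9833 (r 0.930 to 0.986), with 12 genes above 0.9. The RPKM patterns of Tef and Clock include the changes of assigned transcript described above. In RPM the r of the same genes was -0.07 to 0.65 for Tef and -0.04 to 0.82 for Clock. These are descriptions over 6 libraries, and none of the 10 genes is a clock gene of the lists used here.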

How the data were processed

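The authors deposited 1 annotation file per library, in which each of 118492 transcripts carries an estimated read count, a length and an RPKM value as text attributes. TopHat2 (version 2) and GRCm38 (mm10) are named per the submitters' processing notes, while the program that gave reads to transcripts, its strand setting and its annotation release are not given in the sources used here. By their values, the deposited RPKM are scaled to library totals of 19245556 to 21899881 reads, fewer than the estimated reads the files hold.

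Reads and RPKM were summed over the transcripts of a gene, and symbols were matched for 47993 genes and not for 360. RPM are estimated reads scaled to a library total of 1000000. A gene was tested if it averaged 1 RPKM or more, on log2(RPKM + 1) with limma 3.58.1 in R 4.3.3 (trend, two-sided, Benjamini-Hochberg over all tested genes, called below 0.05), knock-out against wild-type, 3 libraries each, with no covariate. A difference on a log2(value + 1) scale understates the change of low genes. The fit was tested on simulated data modelled on genes above 0 in every library. That test held no gene with zeros in a whole group, as Arntl has. Transcript types came from GENCODE vM21 (GRCm38). Tables and figures used Python 3.11.15, pandas 2.3.3, numpy 2.4.6, scipy 1.17.1 and matplotlib 3.10.9.

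The 10 genes, the other gene lists and the marker lists were chosen with earlier results of these data known. Named were the 10 genes, in each other list up to 3 genes per direction with the smallest unadjusted p among those above 0 in all libraries, further clock genes with reads in at least 1 library, the 5 genes most like Dbp and Arntl or the next gene of the same phase without zeros, and Bcl2l11. Some clock genes are not reported here. The alternatives are in the closing section; 3 settings among them were chosen after seeing the data.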

Additional observations from a re-analysis of the deposited data

How the results depend on the processing

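The call of Arntl rests on exact zeros. It held with a pseudocount of 0.1, the other filters, RPM, voom, quantile normalization, no variance trend and without any 1 library. The limma adjusted p lay between 0.00157 and 0.0334 under these. Each of these settings took the knock-out zeros of Arntl as values, so none could test the zeros. Arntl could not be fitted with zeros as missing. With the replicate block the call was lost (limma adjusted p = 0.156). There 0 of the 6 members and 0 of 11021 genes were called (198 genes at an unadjusted p below 0.05). Replicate numbers come from the titles only, and the deviations of same-numbered libraries correlated at -0.16, -0.05 and -0.01, no library correlated best with its own number, and the block does not stand for a known pairing. With tested genes above 0 in all libraries 0 genes and 0 members were called in RPKM (130 genes at an unadjusted p below 0.05) and in RPM (70), and likewise 0 and 0 with zeros as missing (298). Without 1 library 171 to 198 genes were called, against 87; the lowest count was without wild-type replicate 3 and the highest without wild-type replicate 1, and 230 were called in RPM without wild-type replicate 1.

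The sign turned for members that did not pass: Clock ranged from -0.37 to 0.01 (0.0057 without knock-out replicate 1 and 0.011 without wild-type replicate 2) and Tef from -0.16 to 0.35 without 1 library, and Cry2 was 0.52 with zeros as missing. Cry1 stayed negative (-0.54 to -0.13) and Nfil3 positive (0.0013 to 0.16) in all alternatives run. The dawn minus dusk gap stayed negative, at -0.23 without wild-type replicate 2 and -0.61 without wild-type replicate 1. Quantile normalization moved the median of genes above 0 to 0.12. Dbp, with 16 to 22 reads in 5 libraries and 0 in knock-out replicate 1, lay too close to the floor for a fine comparison.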

Other observations

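Per1 and Nfil3 are known to respond to immediate early and glucocorticoid signals, so 16 genes of those responses were read beside them. Of these, 13 were tested and 0 passed in either direction, while 8 were above 0 in all libraries, with 5 positive and 3 negative differences and a median of 0.16 on the log2(RPKM + 1) scale. Junb, an AP-1 subunit, averaged 219.9 ± 45.6 RPM in knock-out libraries and 170.0 ± 29.0 RPM in wild-type libraries (n = 3 each, SD). Gadd45b, a stress-response gene, averaged 31.0 ± 6.24 RPM in knock-out libraries and 25.1 ± 8.77 RPM in wild-type libraries. Btg2, an antiproliferative gene, averaged 82.4 ± 40.9 RPM in knock-out libraries and 56.3 ± 28.2 RPM in wild-type libraries. Klf6, a zinc-finger factor, had 314, 233.6 and 301.4 RPM in knock-out libraries, against 497.2, 259.7 and 278.3 RPM in wild-type libraries, highest in wild-type replicate 1, as were Jun and Nr4a1. In all of these the groups overlapped. Without that library the difference on the log2(RPM + 1) scale was 0.22 for Junb, 0.59 for Gadd45b, 0.33 for Btg2 and 0.06 for Klf6, against 0.36, 0.33, 0.54 and -0.23 with it. Fos was at 0 in every library, as were the Per genes, at a locus of 4 transcripts.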
